A study of Mus musculus with 12 samples.

Results

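Guidance genes encode the ligands and receptors through which growing axons, migrating cells and epithelial cells sense their neighbours. They were taken here by symbol as the protein-coding genes of the Eph receptors, the ephrins, the semaphorins of classes 3 to 7, the plexins, the neuropilins, the Slits, the Robos, the netrins and the Unc5 receptors. The tables held 56 of them among 18926 genes, of which 13983 were protein-coding. They comprised 5 EphA and 4 EphB receptors, 5 ephrin-A and 3 ephrin-B ligands, 6 semaphorins of class 3, 6 of class 4 and 6 of classes 5 to 7, 4 A plexins, 5 B, C and D plexins, 2 neuropilins, 2 Slits, 2 Robos, 4 netrins and 2 Unc5 receptors. All 56 passed the filter on low counts. The symbol rule matched 68 genes of the RefSeq annotation, and the other 12 (Epha3, Epha5, Epha8, Epha10, Ephb1, Robo3, Robo4, Sema3g, Sema5b, Slit3, Unc5a and Unc5d) were not analysed here.

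The cells were S1, a gastric cancer line established from a tumour of a ChetPS mouse, with floxed Smad4 (F/F), floxed Trp53 (F/F) and heterozygous floxed Cdh1 (F/+), and all groups shared this background. Cas9-expressing S1 cells received sgRNAs by lentivirus and were selected with puromycin. The 4 groups were a control with a non-targeting sgRNA or the intact vector, Nf2-KO, Rasa1-KO and a double-KO, with 3 libraries each. For double-KO lines the study describes a single plasmid carrying both sgRNAs, and also successive viruses with puromycin and then G418 selection. Nf2 encodes merlin, a membrane-linked tumour suppressor upstream of the Hippo pathway, and Rasa1 encodes a GTPase-activating protein that switches Ras off. The labels name monolayer cells, whereas the protocol describes spheres grown without attachment. The study describes the libraries of these groups as technical replications, and no source states that the libraries of a group came from separate cultures. P-values therefore measure only the spread between these libraries and not that between cultures.

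Eph receptors are receptor tyrosine kinases that bind ephrins on the neighbouring cell, and signals run into both cells. Ephrin-A ligands are held in the membrane by a lipid anchor and ephrin-B ligands span it. In the gut epithelium Eph and ephrin levels set the position of cells along the crypt. Class 3 semaphorins are secreted and act through a neuropilin bound to a plexin, most other semaphorins are anchored in the membrane and bind plexins directly, and plexins act through their cytoplasmic part to loosen adhesion and collapse the cell edge. Slits bind Robos, and netrins bind Dcc and the Unc5 receptors. Many of these proteins also act in epithelial tumours and in the growth of blood vessels.

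The upstream sequences of 4 members are shown because these genes were among those with large differences between the groups. Sema4g and Sema3a had the largest fall and the largest rise in Nf2-KO, and Epha2 and Sema4a were added after a motif search, since their windows held a match. Sequences are the 250 bases before a transcription start in RefSeq (GRCm38.p6), read 5′ to 3′ on the strand of the gene, and capitals mark GGAATG, the core of the motif of TEAD factors, which act with the Hippo pathway, on either strand (CATTCC when read backwards). The Epha2 window was at chr4:141300971-141301220 (plus strand), the Sema4a window, before one of several starts of this gene, at chr3:88458885-88459134 (minus strand), the Sema4g window at chr19:44989094-44989343 (plus strand) and the Sema3a window, whose start lies within the span of the gene, at chr5:13396534-13396783 (plus strand).
Epha2: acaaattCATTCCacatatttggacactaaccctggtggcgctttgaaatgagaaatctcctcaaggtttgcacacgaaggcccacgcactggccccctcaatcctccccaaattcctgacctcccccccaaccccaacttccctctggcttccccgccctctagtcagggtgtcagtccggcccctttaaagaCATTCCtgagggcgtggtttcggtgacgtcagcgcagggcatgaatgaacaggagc
Sema4a: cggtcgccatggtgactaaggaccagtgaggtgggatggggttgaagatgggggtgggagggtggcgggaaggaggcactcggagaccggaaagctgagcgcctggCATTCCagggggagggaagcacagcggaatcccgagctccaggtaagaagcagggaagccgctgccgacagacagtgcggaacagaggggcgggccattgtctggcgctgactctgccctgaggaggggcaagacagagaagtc
Sema4g: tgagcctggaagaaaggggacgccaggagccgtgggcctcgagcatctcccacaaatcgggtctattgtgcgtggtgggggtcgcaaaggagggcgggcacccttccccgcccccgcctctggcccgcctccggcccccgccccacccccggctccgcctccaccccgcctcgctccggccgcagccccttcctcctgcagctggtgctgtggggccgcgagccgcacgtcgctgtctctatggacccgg
Sema3a: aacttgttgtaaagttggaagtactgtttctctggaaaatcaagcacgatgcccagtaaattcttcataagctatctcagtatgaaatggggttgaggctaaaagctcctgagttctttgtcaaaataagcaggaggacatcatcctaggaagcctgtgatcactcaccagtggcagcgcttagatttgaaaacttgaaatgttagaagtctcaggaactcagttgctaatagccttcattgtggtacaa

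The Epha2 window held 2 matches to GGAATG, starting 243 and 56 bases before the start, and the Sema4a window held 1, at 144 bases. Neither the Sema4g nor the Sema3a window held GGAATG or TGANTCA, the motif of AP-1. The table held 64 promoters of 48 guidance genes, each with 250 bases before and 50 after a start. GGAATG was in 8 of the 64 (12.5%), against 14.7% of all 32851 promoters, and TGANTCA in 3 of the 64 (4.69%), against 7.81%. Both strands were searched, and none of these 4 windows held TGANTCA. A match is a run of letters and not a measured site.

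Total counts were between 43818139 and 96674463 per library. Levels are compared between groups as CPM, the counts of a gene relative to the library total after scaling by the trimmed mean of M-values (TMM). Values of a group are in the order of the library numbers in the sample titles, with a library without a number first. TPM, which also divide by transcript length, are used for levels of different genes and for ratios within a library, because the log2 TPM of the median gene differed from control by −0.27 in Nf2-KO, by −0.55 in the labelled-Rasa1-KO libraries and by −0.34 in the labelled-double-KO libraries. A gene was called at an adjusted p under 0.05 in the edgeR quasi-likelihood test over 18053 genes, and log2 fold changes are given with their standard error (SE) and the adjusted p. Fewer cells of a type and less RNA per cell cannot be told apart in these bulk libraries.

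The targeted genes went against a label. Nf2 was at 58.1, 61.0 and 55.4 CPM in control, at 14.3, 13.2 and 13.2 in Nf2-KO, at 11.6, 11.9 and 12.1 in the labelled-Rasa1-KO libraries and at 62.6, 57.6 and 56.4 in the labelled-double-KO libraries. Nf2 was thus low in Nf2-KO and in the labelled-Rasa1-KO libraries, and at the control level in the labelled-double-KO libraries. Rasa1 was at 60.5, 74.9 and 78.5 CPM in control, at 97.2, 101 and 97.2 in Nf2-KO, at 34.5, 30.4 and 30.8 in the labelled-Rasa1-KO libraries and at 17.7, 20.6 and 23.3 in the labelled-double-KO libraries. Rasa1 was lowest in the labelled-double-KO libraries. The names of the deposited tables give these 2 groups the other way round. They are therefore called the labelled-Rasa1-KO and labelled-double-KO libraries throughout, and exchanging the labels exchanges every value of the one with that of the other.

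Some libraries stood apart or differed in markers. The control library without a number had 8.21 TPM of the collagen gene Col3a1, against 224 and 209 in the other control libraries, and double-KO library 1 (as labelled) had 18.3, against 53.2 and 61.0. The summed TPM of the 5 fibroblast markers measured was 28.4 to 294 in control, 1637 to 1813 in Nf2-KO, 478 to 536 in the labelled-Rasa1-KO libraries and 27.3 to 74.1 in the labelled-double-KO libraries. Most of the sum in Nf2-KO was Col3a1, at 1501 to 1650 TPM, whereas Dcn of the same list went the other way, at a mean of 60.8 CPM in control, 36.9 in Nf2-KO, 27.8 in the labelled-Rasa1-KO libraries and 13.8 in the labelled-double-KO libraries. The summed epithelial markers, 5 of 6 measured, were between 3752 and 5404 TPM in all libraries, while Epcam was at 36.0 to 56.6 TPM in control, 6.08 to 7.28 in Nf2-KO, 11.0 to 12.5 in the labelled-Rasa1-KO libraries and 12.1 to 28.7 in the labelled-double-KO libraries. Of the endothelial markers 3 of 6 were measured, and none reached 1 TPM in any library, with Pecam1 at 0.472 TPM at most. The gastric markers measured (3 of 8) summed to 0.869 to 7.09 TPM. Of these, Muc5ac had means of 6.10 CPM in control, 0.27 in Nf2-KO, 0.39 in the labelled-Rasa1-KO libraries and 1.59 in the labelled-double-KO libraries. No KO library overlapped control for Muc5ac. In the same order, Tff1 was at 0.475, 1.10, 2.21 and 1.15 CPM and Tff2 at 0.474, 0.254, 0.835 and 0.645. The neural and glial markers (4 of 7) summed to 11.5 to 25.4 TPM. Of these, Tubb3 was at 2.32 to 4.49 CPM in control, 11.1 to 12.4 in Nf2-KO, 6.24 to 7.24 in the labelled-Rasa1-KO libraries and 4.80 to 7.56 in the labelled-double-KO libraries, so that no KO library overlapped control, and Snap25 had means of 5.08, 2.99, 4.62 and 7.36 CPM. The leukocyte markers (3 of 6) summed to 5.60 to 20.7 TPM, with Ptprc at 0.171 at most. Of these, Cd68 was at 5.53 to 8.16 CPM in control, 14.1 to 14.9 in Nf2-KO, 19.7 to 22.4 in the labelled-Rasa1-KO libraries and 6.81 to 15.9 in the labelled-double-KO libraries, of which the last overlapped control. The other leukocyte markers did not share this rise throughout. In the same order of groups, Ptprc had means of 0.412, 0.232, 0.222 and 0.412 CPM, and Csf1r of 1.41, 2.62, 1.48 and 1.40. The part of these markers in the differences below was not tested, and main differences that rest on the library without a number are given also without it.

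Over the 4 groups, 41 of the 56 guidance genes differed (73.2%), against 45.9% of all genes tested. In Nf2-KO against control 33 genes were called (58.9%), against 42.5% of all genes. Of the guidance genes 13 were higher (23.2%, against 20.4% of all genes) and 20 lower (35.7%, against 22.1%). In the labelled-Rasa1-KO libraries 37 genes were called (66.1%), against 41.7% of all genes. There 16 were higher (28.6%, against 19.6%) and 21 lower (37.5%, against 22.1%). In the labelled-double-KO libraries 9 were called (16.1%), against 6.39% of all genes. Here 8 were higher (14.3%, against 3.98%) and 1 lower (1.79%, against 2.42%). The median log2 fold change of the guidance genes was −0.21 in Nf2-KO, −0.26 in the labelled-Rasa1-KO libraries and −0.06 in the labelled-double-KO libraries, against −0.07, −0.08 and −0.04 for all genes. These 3 comparisons share the control libraries. The groups did not overlap for 38, 39 and 16 of the guidance genes (67.9%, 69.6% and 28.6%), against 46.8%, 46.8% and 18.4% of all genes. The calls held in all of 19 alternative settings for 25 genes in Nf2-KO (9 higher, 16 lower), for 25 in the labelled-Rasa1-KO libraries (9 higher, 16 lower) and for 0 in the labelled-double-KO libraries, where 14 were called by DESeq2, 12 had an unadjusted p under 0.05 with only the 6 libraries of both groups fitted by edgeR, and 28 were called (14 higher, 14 lower) without the control library without a number and double-KO library 1. This last setting was added after the data were seen. With the replicate numbers of the file names as a block, 17 were called in the labelled-double-KO libraries. They were the 9 and also Efna3, Plxnb3, Robo2, Sema3e, Sema4a, Sema4c, Sema6b and Unc5b. By these numbers all 3 pairs of control and labelled-double-KO libraries deviated together (correlations of 0.626, 0.313 and 0.444). Pairs of libraries of the other groups correlated at −0.055 to 0.174 by these numbers. When single libraries were left out, the calls of Sema3a, Plxna4, Unc5c, Plxnb1, Efnb2 and Sema4b in these libraries were lost in at least 1 fit, and those of Epha2, Sema3c and Sema4f in none of the 12. Without the control library without a number 43 guidance genes were called in Nf2-KO, 42 in the labelled-Rasa1-KO libraries and 23 in the labelled-double-KO libraries. The calls gained were Efna1, Ephb2, Ephb6, Ntn4, Plxnc1, Robo1, Sema5a, Sema6a, Sema6b, Sema6d, Slit1 and Unc5b in the first, Epha6, Ephb6, Ntn3, Plxnc1, Sema4d and Sema5a in the second, and Efna1, Efna3, Ntn1, Ntn4, Plxna1, Plxnd1, Robo1, Sema4a, Sema4d, Sema5a, Sema6a, Sema6b, Sema7a and Unc5b in the third. For the refits above the share of all genes called is not given, so their counts are not a result about the guidance genes in particular. The rule of the study was a fold change of at least 3 and an unadjusted p under 0.05. It called 13 guidance genes in Nf2-KO (23.2%, against 11.4% of all genes). It called 12 in the labelled-Rasa1-KO libraries (21.4%, against 9.26%) and 2 in the labelled-double-KO libraries (3.57%, against 2.02%).

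**Figure D1:**
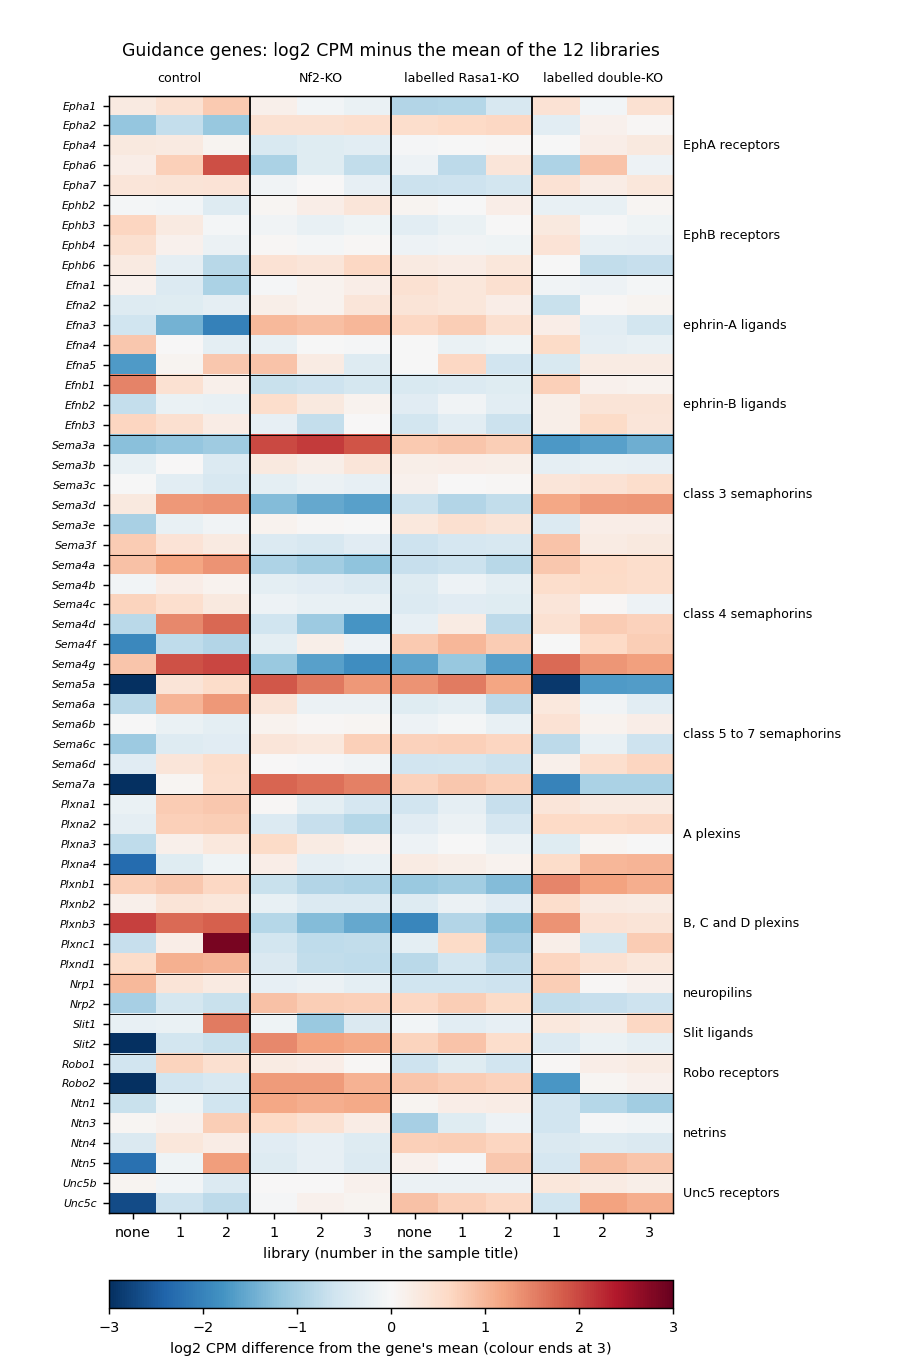
Each row is a guidance gene and each column a library, headed by its group and numbered as in the sample title ("none" for a library without a number). Colour is log2 CPM minus the mean of the gene over the 12 libraries, red for higher and blue for lower. The libraries of Nf2-KO and those labelled Rasa1-KO show red for Sema3a, Nrp2, Epha2 and Efna3 and blue for Sema4g, Plxnb3, Sema3d and Sema4a, and the first column, the control library without a number, stands out in blue for Sema5a, Sema7a, Slit2, Robo2 and Unc5c.

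Direct comparisons of the groups that carry a KO gave 29 calls (51.8%, against 30% of all genes) between the labelled-double-KO libraries and labelled Rasa1-KO. In the former 21 were higher (37.5%, against 16.1%) and 8 lower (14.3%, against 13.9%). The median log2 fold change was 0.29 for the guidance genes and 0.00 for all genes. Between the labelled-Rasa1-KO libraries and Nf2-KO 4 were called (7.14%, against 3.62% of all genes). In the labelled-Rasa1-KO libraries Ntn4 was higher (1.79%, against 1.9% of all genes) and Sema3a, Ntn1 and Epha7 were lower (5.36%, against 1.72%). By the rule of the study 7 were called between the first pair (12.5%, against 5.64%) and 0 between the second (against 1.28%). In the second pair 15 had an unadjusted p under 0.05 by edgeR. The median log2 fold change was −0.11 against 0.01 for all genes. The 4 calls became 25 with only these 6 libraries fitted, 14 without the control library without a number and 21 without this library and double-KO library 1, so that few calls do not show that both groups were alike. The share of all genes in these fits is not given, so the rise is not a result about the guidance genes in particular.

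**Figure D2:**
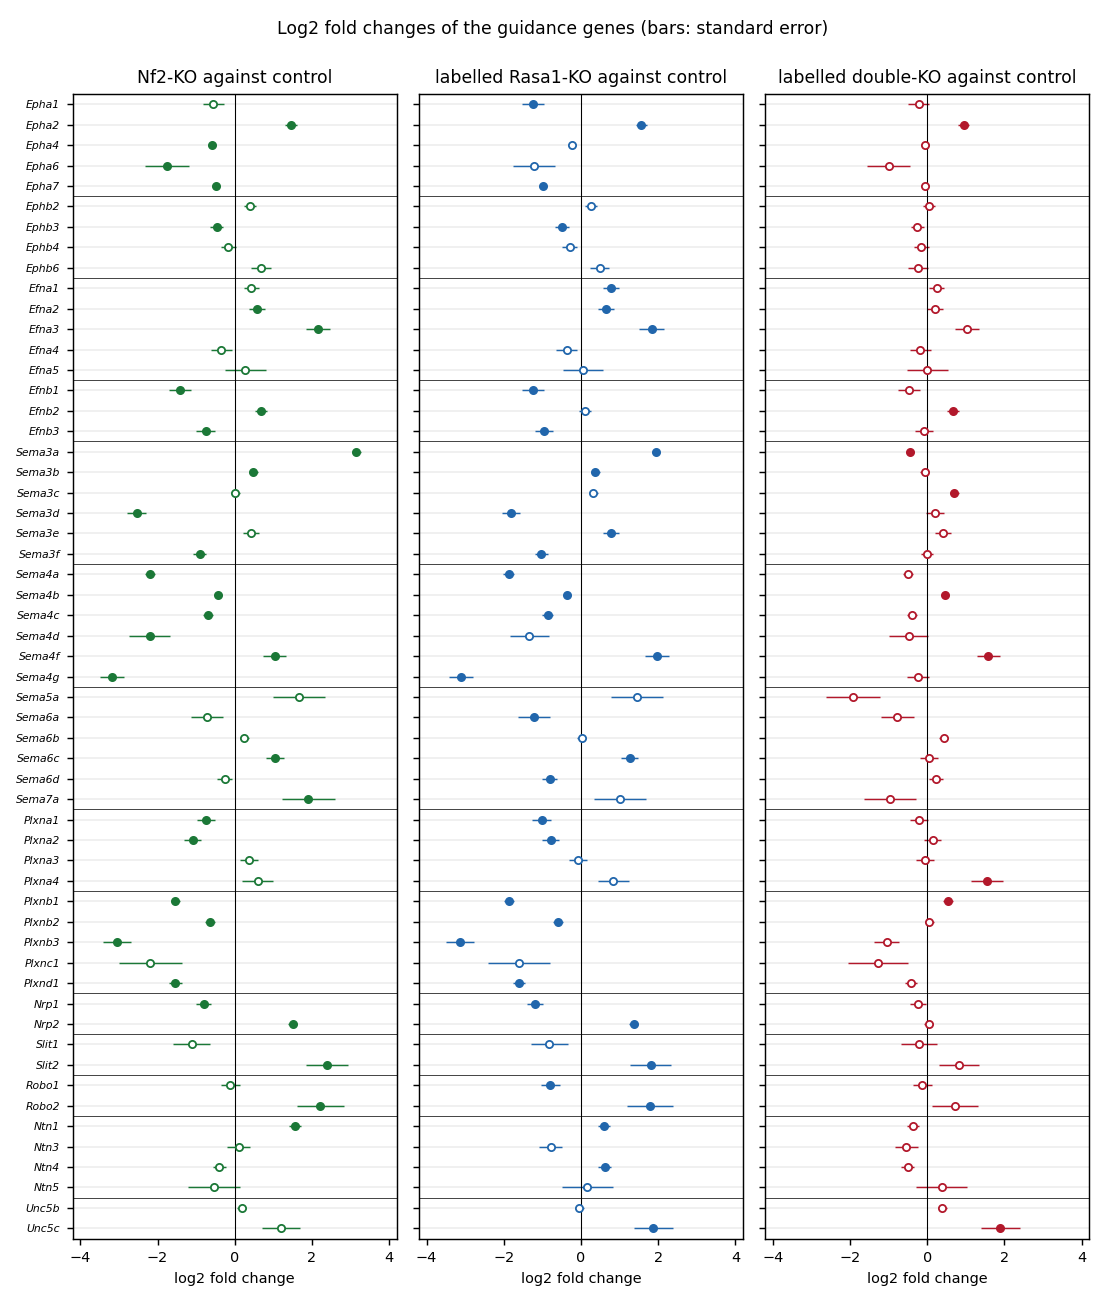
Log2 fold changes against control of the 56 guidance genes in Nf2-KO, in the labelled-Rasa1-KO libraries and in the labelled-double-KO libraries, with bars of 1 standard error and filled points for an adjusted p under 0.05. Filled points number 33, 37 and 9. The widest are Sema4g at −3.18 and Sema3a at 3.14 in Nf2-KO.

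Among the EphA receptors Epha2 was the most abundant, at a mean of 49.3 TPM over all libraries. Epha2 was at 64.0, 87.4 and 64.7 CPM in control, at 195, 196 and 202 in Nf2-KO, at 204, 215 and 219 in the labelled-Rasa1-KO libraries and at 114, 156 and 147 in the labelled-double-KO libraries. All 9 libraries of the KO groups lay above all control libraries. The log2 fold change was 1.46 ± 0.14 (adjusted p = 1.2e-05) in Nf2-KO, 1.56 ± 0.14 (adjusted p = 1.1e-05) in the labelled-Rasa1-KO libraries and 0.95 ± 0.14 (adjusted p = 0.0027) in the labelled-double-KO libraries. Epha2 binds ephrin-A1 and is often abundant in carcinomas. Epha4, a receptor for ligands of both classes, differed in Nf2-KO. Epha4 was at 77.0, 75.3 and 66.5 CPM in control, at 45.7, 49.0 and 50.3 in Nf2-KO, at 61.3, 62.3 and 63.6 in the labelled-Rasa1-KO libraries and at 61.7, 72.1 and 76.9 in the labelled-double-KO libraries. All 3 Nf2-KO libraries were below the rest, with a log2 fold change of −0.59 ± 0.10 (adjusted p = 0.00076), and the value in the labelled-Rasa1-KO libraries was −0.23 ± 0.10 (adjusted p = 0.1). Within each library the TPM of Epha2 was 1.34 to 1.88 times that of Epha4 in control, 6.47 to 6.89 times in Nf2-KO, 5.37 to 5.58 times in the labelled-Rasa1-KO libraries and 2.99 to 3.49 times in the labelled-double-KO libraries.

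Epha7, another receptor of ephrin-A ligands, was lower in both groups with low Nf2. Epha7 was at 42.7, 43.1 and 44.2 CPM in control, at 30.8, 33.4 and 28.1 in Nf2-KO, at 21.3, 21.4 and 22.7 in the labelled-Rasa1-KO libraries and at 44.7, 39.0 and 42.1 in the labelled-double-KO libraries. The labelled-double-KO libraries overlapped control, and the other groups did not. The log2 fold change was −0.49 ± 0.10 (adjusted p = 0.0015) in Nf2-KO and −0.99 ± 0.10 (adjusted p = 1.5e-05) in the labelled-Rasa1-KO libraries, and the difference between these 2 groups was itself called, at −0.50 ± 0.10 (adjusted p = 0.015), a call that was lost without any one library labelled Rasa1-KO and without Nf2-KO library 1 or 2 (adjusted p up to 0.092). Epha1 and Epha6 were scarce, with means of 0.21 and 0.02 TPM. Epha1 fell by 1.24 ± 0.29 in the labelled-Rasa1-KO libraries (adjusted p = 0.0056), and Epha6 in Nf2-KO changed by −1.76 ± 0.57 (adjusted p = 0.026), or −1.14 without control library 2, where the call was lost.

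The calls of the EphB receptors depended on the setting. Ephb4, the receptor of ephrin-B2 in vessel walls and the most abundant of them at a mean of 34.6 TPM, was not called in any comparison with control. Ephb4 was at 162, 125 and 102 CPM in control, at 119, 111 and 118 in Nf2-KO, at 104, 108 and 106 in the labelled-Rasa1-KO libraries and at 154, 99.5 and 97.6 in the labelled-double-KO libraries. All 3 KO groups overlapped control, with log2 fold changes of −0.16 ± 0.19 (adjusted p = 0.5), −0.29 ± 0.19 (adjusted p = 0.23) and −0.15 ± 0.19 (adjusted p = 0.7). Ephb3, which with Ephb2 positions cells of the intestinal crypt, was at −0.47 ± 0.17 (adjusted p = 0.049) in Nf2-KO and −0.49 ± 0.17 (adjusted p = 0.042) in the labelled-Rasa1-KO libraries. Both calls were lost without the control library without a number (−0.26, adjusted p = 0.13, and −0.29, adjusted p = 0.10). They were also lost without control library 1 and without any one library of Nf2-KO or labelled Rasa1-KO. Fits with no filter on low counts or with only the groups compared lost both too. Ephb2 and Ephb6, a member without kinase activity, were not called against control with all libraries, with Ephb6 at 0.67 ± 0.25 (adjusted p = 0.051) in Nf2-KO. Without that control library both were higher in Nf2-KO, Ephb2 at 0.44 (adjusted p = 0.034) and Ephb6 at 0.99 (adjusted p = 0.0017), and Ephb6 also in the labelled-Rasa1-KO libraries, at 0.80 (adjusted p = 0.0066). DESeq2 called both in Nf2-KO with all libraries.

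Of the ephrin-A ligands, Efna3 differed most. Efna3 was at 1.87, 1.05 and 0.695 CPM in control, at 5.49, 5.25 and 5.64 in Nf2-KO, at 4.34, 4.73 and 3.91 in the labelled-Rasa1-KO libraries and at 3.25, 2.25 and 1.92 in the labelled-double-KO libraries. All 6 libraries of Nf2-KO and labelled Rasa1-KO lay above all control libraries. The log2 fold change was 2.16 ± 0.32 (adjusted p = 0.00023) in Nf2-KO, 1.83 ± 0.31 (adjusted p = 0.00082) in the labelled-Rasa1-KO libraries and 1.02 ± 0.31 (adjusted p = 0.079) in the labelled-double-KO libraries, where it was called at 1.08 with the file-name block and at 1.49 (adjusted p = 0.0016) without the control library without a number. Efna3 lies between Efna1 and Efna4 on chromosome 3 (GRCm38, Efna1 from 89271730, Efna4 to 89338028). Its neighbours had smaller fold changes in Nf2-KO. Efna1, the most abundant ephrin-A ligand at a mean of 46.1 TPM, was called in the labelled-Rasa1-KO libraries, at 0.77 ± 0.20 (adjusted p = 0.01), but not in Nf2-KO, at 0.43 ± 0.20 (adjusted p = 0.1), and the former call was lost with only the 6 libraries of both groups fitted. Without the control library without a number Efna1 was called in both, at 1.08 (adjusted p = 2.5e-05) and 0.74 (adjusted p = 0.00042). Efna4 had log2 fold changes of −0.35 ± 0.28 (adjusted p = 0.33), −0.37 ± 0.28 (adjusted p = 0.31) and −0.18 ± 0.28 (adjusted p = 0.77), none called. Efna2 was at 0.57 ± 0.21 (adjusted p = 0.045) in Nf2-KO and 0.65 ± 0.21 (adjusted p = 0.026) in the labelled-Rasa1-KO libraries, and both calls were lost when single libraries of these groups or control library 1 were left out (adjusted p up to 0.15).

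Efnb1 and Efnb2, transmembrane ligands of the EphB receptors, went opposite ways in Nf2-KO. Efnb1 was at 120.3, 58.5 and 47.7 CPM in control, at 27.1, 28.1 and 29.6 in Nf2-KO, at 31.1, 32.0 and 33.1 in the labelled-Rasa1-KO libraries and at 70.3, 46.9 and 46.3 in the labelled-double-KO libraries. All 6 libraries of Nf2-KO and labelled Rasa1-KO lay below all control libraries, and the log2 fold change was −1.42 ± 0.29 (adjusted p = 0.0023) and −1.24 ± 0.29 (adjusted p = 0.0056). Without the control library without a number, the highest of all, the value in Nf2-KO was −0.91 (adjusted p = 0.00033). Efnb2 was at 80.6, 114 and 113 CPM in control, at 189, 161 and 142 in Nf2-KO, at 104, 122 and 105 in the labelled-Rasa1-KO libraries and at 149, 171 and 172 in the labelled-double-KO libraries. Efnb2 rose in Nf2-KO, by 0.68 ± 0.15 (adjusted p = 0.0041), and in the labelled-double-KO libraries, by 0.68 ± 0.15 (adjusted p = 0.023), while the labelled-Rasa1-KO libraries overlapped control, at 0.10 ± 0.15 (adjusted p = 0.61). The TPM of Efnb2 was 0.426, 1.21 and 1.52 times that of Efnb1 in the control libraries, 2.97 to 4.37 times in Nf2-KO, 2.06 to 2.43 times in the labelled-Rasa1-KO libraries and 1.39 to 2.34 times in the labelled-double-KO libraries. Efnb3 was at 0.50 TPM on average and fell by 0.75 ± 0.24 in Nf2-KO (adjusted p = 0.026, lost without Nf2-KO library 1 or 2 or control library 1) and by 0.96 ± 0.24 in the labelled-Rasa1-KO libraries (adjusted p = 0.0085).

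**Figure D3:**
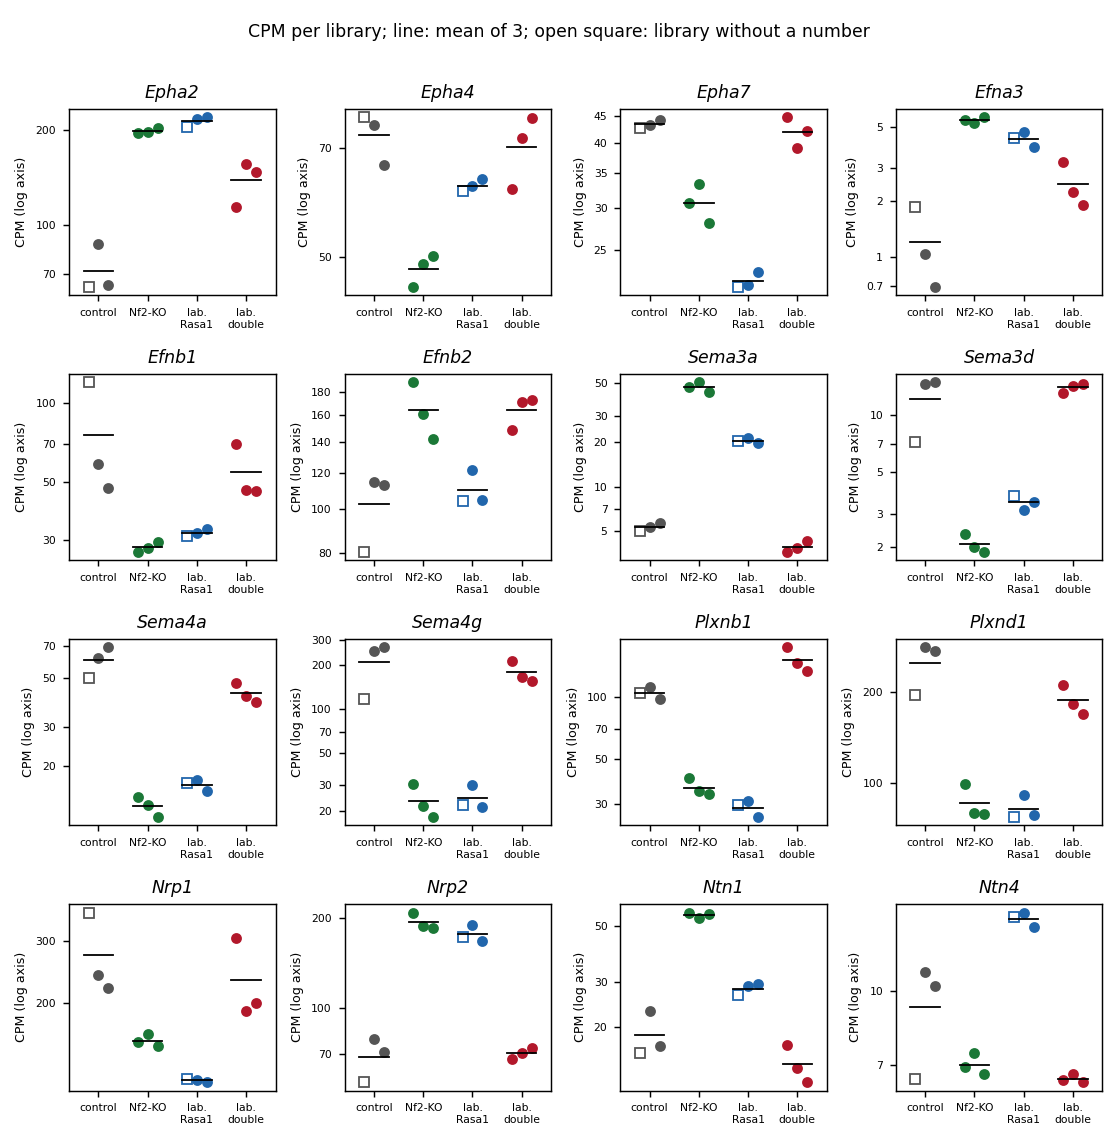
CPM of 16 guidance genes in each library on a log axis, with a line at the mean of 3 libraries and an open square for a library without a number. The Nf2-KO libraries and those labelled Rasa1-KO sit above control for Epha2, Efna3, Sema3a, Nrp2 and Ntn1 and below it for Sema3d, Sema4a, Sema4g, Plxnb1, Plxnd1 and Nrp1, and Ntn4 is highest in the labelled-Rasa1-KO libraries.

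The class 3 semaphorins are secreted, and neighbouring genes of this class moved in opposite directions. Sema3a was at 4.98, 5.30 and 5.70 CPM in control, at 46.9, 50.6 and 43.5 in Nf2-KO, at 20.3, 21.3 and 19.6 in the labelled-Rasa1-KO libraries and at 3.61, 3.84 and 4.28 in the labelled-double-KO libraries. Sema3a, which repels axons and migrating cells through neuropilin-1 and A plexins, was 3.14 ± 0.11 higher on the log2 scale in Nf2-KO (adjusted p = 1.2e-08) and 1.94 ± 0.11 higher in the labelled-Rasa1-KO libraries (adjusted p = 3.4e-07), with no overlap between these 3 groups. The difference between the last 2 was −1.21 ± 0.11 (adjusted p = 0.00022). In the labelled-double-KO libraries it was lower than control, at −0.44 ± 0.11 (adjusted p = 0.032), a call lost in 11 of the 12 fits that left out a library. Sema3d lies before Sema3a on chromosome 5 (GRCm38, 12383161 to 12588953, and 13124822 to 13603485), with Sema3e behind it. Sema3d was at 7.17, 14.5 and 14.8 CPM in control, at 2.35, 2.01 and 1.89 in Nf2-KO, at 3.74, 3.15 and 3.46 in the labelled-Rasa1-KO libraries and at 13.1, 14.2 and 14.6 in the labelled-double-KO libraries. Sema3d fell, at −2.54 ± 0.25 (adjusted p = 1e-05) in Nf2-KO and −1.81 ± 0.24 (adjusted p = 0.00013) in the labelled-Rasa1-KO libraries, and the labelled-double-KO libraries overlapped control. Without the control library without a number the values were −2.81 (adjusted p = 6.4e-09) and −2.08 (adjusted p = 9.3e-08). Sema3e, which binds plexin D1 without a neuropilin, was at 0.43 ± 0.21 (adjusted p = 0.12) in Nf2-KO and rose in the labelled-Rasa1-KO libraries by 0.78 ± 0.21 (adjusted p = 0.012).

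Sema3c, a ligand of both neuropilins, was the most abundant semaphorin, with a mean of 113.7 TPM. Sema3c was at 428, 351 and 313 CPM in control, at 353, 383 and 365 in Nf2-KO, at 476, 436 and 448 in the labelled-Rasa1-KO libraries and at 559.9, 587 and 628 in the labelled-double-KO libraries. The labelled-double-KO libraries were above all others, at 0.70 ± 0.12 (adjusted p = 0.0054) against control, while Nf2-KO overlapped control at 0.01 ± 0.12 (adjusted p = 0.94). Sema3f, a ligand of neuropilin-2, and Sema3b, its neighbour on chromosome 9, differed in direction. Sema3f was at 151, 117 and 108 CPM in control, at 67.2, 63.3 and 70.2 in Nf2-KO, at 58.3, 62.6 and 64.2 in the labelled-Rasa1-KO libraries and at 161, 106 and 108 in the labelled-double-KO libraries. Sema3f fell, at −0.91 ± 0.17 (adjusted p = 0.0012) in Nf2-KO and −1.02 ± 0.17 (adjusted p = 0.0006) in the labelled-Rasa1-KO libraries. Sema3b was at 0.47 ± 0.11 (adjusted p = 0.0061) in Nf2-KO and 0.37 ± 0.11 (adjusted p = 0.022) in the labelled-Rasa1-KO libraries, and the calls were lost with only the 6 libraries of both groups fitted. That in the labelled-Rasa1-KO libraries was also lost without any one library of that group or control library 2. The TPM of Sema3a was 0.0172 to 0.0283 times that of Sema3f in control, 0.344 to 0.447 times in Nf2-KO, 0.156 to 0.194 times in the labelled-Rasa1-KO libraries and 0.0123 to 0.0216 times in the labelled-double-KO libraries.

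Class 4 semaphorins, which span the membrane, were mostly lower. In Nf2-KO 5 of 6 fell and Sema4f rose, and in the labelled-Rasa1-KO libraries 4 fell, Sema4f rose and Sema4d was not called. Of all genes tested, 22.1% were called lower in each of these comparisons, and 20.4% and 19.6% higher. Sema4g was at 118, 250.4 and 265 CPM in control, at 30.5, 21.5 and 18.2 in Nf2-KO, at 22.1, 30.0 and 21.1 in the labelled-Rasa1-KO libraries and at 215, 166 and 156 in the labelled-double-KO libraries. Sema4g, the most abundant of the class at a mean of 34.8 TPM, fell, at −3.18 ± 0.31 (adjusted p = 1.2e-05) in Nf2-KO and −3.11 ± 0.31 (adjusted p = 2.1e-05) in the labelled-Rasa1-KO libraries, and all 6 libraries were below all others. Without the control library without a number, the lowest of control, the values were −3.46 (adjusted p = 6.4e-08) and −3.40 (adjusted p = 1.2e-07). Sema4a was at 49.7, 61.7 and 68.7 CPM in control, at 14.4, 13.2 and 11.7 in Nf2-KO, at 16.7, 17.2 and 15.3 in the labelled-Rasa1-KO libraries and at 47.2, 41.3 and 39.0 in the labelled-double-KO libraries. Sema4a, known from immune and retinal cells, fell, at −2.20 ± 0.14 (adjusted p = 4.5e-07) and −1.87 ± 0.14 (adjusted p = 2.1e-06), and was at −0.50 ± 0.13 (adjusted p = 0.05) in the labelled-double-KO libraries, where it was called at −0.49 with the file-name block and at −0.61 (adjusted p = 0.0023) without the control library without a number. Sema4b fell in both groups with low Nf2, at −0.42 ± 0.10 (adjusted p = 0.0047) and −0.35 ± 0.10 (adjusted p = 0.013), and was higher in the labelled-double-KO libraries, by 0.47 ± 0.10 (adjusted p = 0.016). The call in the labelled-Rasa1-KO libraries was lost without library 2, the library without a number or control library 1. Sema4c, a ligand of plexin B2, fell, at −0.69 ± 0.13 (adjusted p = 0.0016) and −0.86 ± 0.13 (adjusted p = 0.00042).

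Sema4d, the ligand of plexin B1, varied among the control libraries. Sema4d was at 2.51, 11.9 and 14.3 CPM in control, at 2.87, 2.04 and 1.29 in Nf2-KO, at 3.67, 5.16 and 2.53 in the labelled-Rasa1-KO libraries and at 5.96, 7.44 and 7.09 in the labelled-double-KO libraries. The control library without a number overlapped Nf2-KO, and the log2 fold change was −2.21 ± 0.53 (adjusted p = 0.0062) with it and −2.66 (adjusted p = 1.2e-05) without it. Sema4f rose against this trend. Sema4f was at 0.754, 1.72 and 1.57 CPM in control, at 2.35, 3.26 and 2.60 in Nf2-KO, at 5.02, 5.74 and 4.94 in the labelled-Rasa1-KO libraries and at 2.88, 4.35 and 4.79 in the labelled-double-KO libraries. All 9 libraries of the KO groups lay above control, with 1.03 ± 0.30 (adjusted p = 0.016) in Nf2-KO, 1.97 ± 0.30 (adjusted p = 0.0004) in the labelled-Rasa1-KO libraries and 1.58 ± 0.30 (adjusted p = 0.01) in the labelled-double-KO libraries. The Nf2-KO call was lost without Nf2-KO library 2 (adjusted p = 0.063).

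Class 5 to 7 semaphorins were less abundant, and Sema6d, a ligand of plexin A1 in the developing heart, was the highest at a mean of 7.23 TPM. Sema6d was at 32.4, 52.5 and 58.8 CPM in control, at 41.5, 40.2 and 38.1 in Nf2-KO, at 27.7, 28.1 and 26.2 in the labelled-Rasa1-KO libraries and at 45.6, 58.1 and 64.0 in the labelled-double-KO libraries. It fell in the labelled-Rasa1-KO libraries, at −0.81 ± 0.19 (adjusted p = 0.0063), and overlapped control in Nf2-KO, at −0.26 ± 0.19 (adjusted p = 0.29). Without the control library without a number, the lowest of control, it was called in both, at −1.02 (adjusted p = 1.8e-05) and −0.47 (adjusted p = 0.0049). Sema6c rose in both groups with low Nf2, by 1.05 ± 0.23 (adjusted p = 0.0034) and 1.26 ± 0.23 (adjusted p = 0.0012). Sema6a fell in the labelled-Rasa1-KO libraries, at −1.22 ± 0.42 (adjusted p = 0.037), although that group overlapped control and the call was lost without any one of the 3 libraries. Sema5a, which carries thrombospondin repeats, and Sema7a, held by a lipid anchor, were nearly absent from the control library without a number. Sema5a was at 0.861, 12.4 and 13.7 CPM in control, at 34.0, 28.0 and 23.0 in Nf2-KO, at 24.1, 27.5 and 21.2 in the labelled-Rasa1-KO libraries and at 1.26, 2.89 and 2.94 in the labelled-double-KO libraries. Sema7a was at 0.297, 4.47 and 6.01 CPM in control, at 14.4, 13.4 and 12.1 in Nf2-KO, at 6.91, 7.50 and 7.03 in the labelled-Rasa1-KO libraries and at 1.06, 2.21 and 2.21 in the labelled-double-KO libraries. Sema7a was at 1.91 ± 0.68 (adjusted p = 0.042) in Nf2-KO, or 1.35 (adjusted p = 0.00052) without that control library. The call was lost in 9 of the 12 fits that left out a library (adjusted p up to 0.087), any one Nf2-KO library among them, and with only the 6 libraries of both groups fitted (adjusted p = 0.15). Sema5a was not called against control in any group, at 1.67 ± 0.68 (adjusted p = 0.067), 1.44 ± 0.67 (adjusted p = 0.11) and −1.92 ± 0.70 (adjusted p = 0.14), but without that control library it was higher in Nf2-KO, at 1.12 (adjusted p = 0.0033), and in the labelled-Rasa1-KO libraries, at 0.90 (adjusted p = 0.012), and lower in the labelled-double-KO libraries, at −2.47 (adjusted p = 0.00012).

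Plexins, the receptors of the semaphorins, were lower where they were called in Nf2-KO and in the labelled-Rasa1-KO libraries. In both groups 6 of 9 fell (Plxna1, Plxna2, Plxnb1, Plxnb2, Plxnb3 and Plxnd1) and the other 3 were not called, among them Plxna4 and Plxna3 in Nf2-KO, at 0.59 ± 0.41 (adjusted p = 0.26) and 0.37 ± 0.23 (adjusted p = 0.22). Of all genes tested, 22.1% were called lower in each of these comparisons. Plxnb2, which binds class 4 semaphorins and angiogenin, was the most abundant guidance gene, at a mean of 170.3 TPM. Plxnb2 was at 912, 1085 and 1055 CPM in control, at 710.5, 622 and 623 in Nf2-KO, at 637, 734 and 650.0 in the labelled-Rasa1-KO libraries and at 1192, 1003 and 979.7 in the labelled-double-KO libraries. It fell, at −0.64 ± 0.12 (adjusted p = 0.0014) and −0.59 ± 0.12 (adjusted p = 0.0026), and the labelled-double-KO libraries overlapped control, at 0.06 ± 0.12 (adjusted p = 0.84). Plxnb1 was at 105, 112 and 97.8 CPM in control, at 40.0, 34.6 and 33.6 in Nf2-KO, at 29.5, 31.0 and 25.9 in the labelled-Rasa1-KO libraries and at 175, 146 and 135 in the labelled-double-KO libraries. Plxnb1, the receptor of Sema4d, fell, at −1.54 ± 0.12 (adjusted p = 2.5e-06) and −1.86 ± 0.13 (adjusted p = 1e-06), and was higher than control in the labelled-double-KO libraries, by 0.54 ± 0.12 (adjusted p = 0.023), a call lost without control library 2 or double-KO library 1 or 2 (adjusted p up to 0.07) and with only the 6 libraries of both groups fitted (adjusted p = 0.25). The labelled-double-KO libraries exceeded those labelled Rasa1-KO by 2.40 ± 0.13 (adjusted p = 4e-07).

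Plxnd1 was at 195, 280.4 and 273 CPM in control, at 99.4, 79.6 and 78.8 in Nf2-KO, at 77.0, 90.7 and 77.9 in the labelled-Rasa1-KO libraries and at 210.3, 182 and 169 in the labelled-double-KO libraries. Plxnd1, best known from the endothelium as the receptor of Sema3e, fell, at −1.54 ± 0.16 (adjusted p = 1.7e-05) and −1.61 ± 0.16 (adjusted p = 1.8e-05), in libraries where Pecam1 was at 0.472 TPM at most. Plxnb3 had a mean of 0.32 TPM. Plxnb3 was at 3.61, 2.82 and 3.02 CPM in control, at 0.482, 0.354 and 0.302 in Nf2-KO, at 0.226, 0.474 and 0.372 in the labelled-Rasa1-KO libraries and at 2.23, 1.18 and 1.14 in the labelled-double-KO libraries. All 6 libraries of Nf2-KO and labelled Rasa1-KO were below the rest, at −3.05 ± 0.36 (adjusted p = 4.4e-05) and −3.13 ± 0.36 (adjusted p = 5.2e-05). Plxnb3 and Plxna3 lie 555780 bases apart on the X chromosome, and Plxna3 was not called in any comparison with control. Plxna1 and Plxna2, partners of the neuropilins, were at −0.75 ± 0.24 (adjusted p = 0.023) and −1.09 ± 0.23 (adjusted p = 0.0025) in Nf2-KO and at −1.02 ± 0.24 (adjusted p = 0.0054) and −0.78 ± 0.22 (adjusted p = 0.016) in the labelled-Rasa1-KO libraries. The control library without a number was the lowest control library for both, and without it the values in Nf2-KO were −1.01 (adjusted p = 6.3e-05) and −1.35 (adjusted p = 1.5e-06). The call of Plxna1 in Nf2-KO was lost without control library 1 or 2, or Nf2-KO library 2 or 3, and that of Plxna2 in the labelled-Rasa1-KO libraries without control library 1 or 2, or library 2 of that group. Plxnc1, the receptor of Sema7a, was at 0.05 TPM on average and was not called. Plxna4 rose in the labelled-double-KO libraries, by 1.54 ± 0.41 (adjusted p = 0.048), with the control library without a number at 1.08 CPM against 4.22 and 4.96. Without that library the value was 1.11 (adjusted p = 0.0015), and the call was lost in 10 of the 12 fits that left out a library.

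The neuropilins, co-receptors of class 3 semaphorins and of vascular endothelial growth factors, exchanged their order. Nrp1 was at 361, 239 and 220.4 CPM in control, at 154, 163 and 151 in Nf2-KO, at 121, 121 and 119 in the labelled-Rasa1-KO libraries and at 306, 189.5 and 199 in the labelled-double-KO libraries. Nrp2 was at 56.5, 78.6 and 71.1 CPM in control, at 209, 188 and 186 in Nf2-KO, at 174, 190.3 and 167 in the labelled-Rasa1-KO libraries and at 67.4, 70.6 and 73.5 in the labelled-double-KO libraries. Nrp1 fell, at −0.81 ± 0.20 (adjusted p = 0.0079) in Nf2-KO and −1.18 ± 0.21 (adjusted p = 0.0009) in the labelled-Rasa1-KO libraries, while Nrp2 rose by 1.50 ± 0.12 (adjusted p = 2.6e-06) and 1.36 ± 0.12 (adjusted p = 8.3e-06). Neither was called in the labelled-double-KO libraries, at −0.24 ± 0.20 (adjusted p = 0.55) and 0.04 ± 0.12 (adjusted p = 0.9). The TPM of Nrp2 was 0.141, 0.304 and 0.307 times that of Nrp1 in control, 1.23, 1.04 and 1.11 times in Nf2-KO, 1.29, 1.42 and 1.26 times in the labelled-Rasa1-KO libraries and 0.201, 0.340 and 0.337 times in the labelled-double-KO libraries. Nrp2 thus exceeded Nrp1 in all 6 libraries with low Nf2 and was below it in the other 6. These ratios, and the other 4 pairs given, were chosen after the values were seen and carry no test.

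**Figure D4:**
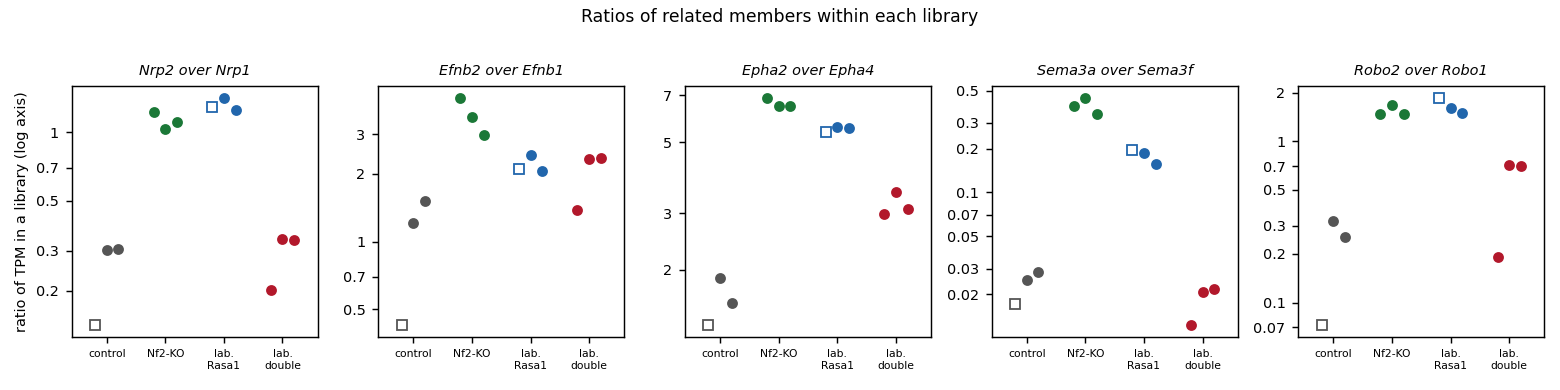
Ratios of TPM between related guidance genes within each library, on log axes, by group, with an open square for a library without a number. Nrp2 over Nrp1 lies above 1 in every library of Nf2-KO and labelled Rasa1-KO and at 0.340 or below in every other library, and Efnb2 over Efnb1, Epha2 over Epha4 and Sema3a over Sema3f are lowest in control or in the labelled-double-KO libraries.

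Slit2, the main Slit measured, and Robo2, one of its receptors, rose in both groups with low Nf2, and 1 control library was far below the others. Slit2 was at 1.12, 9.88 and 9.07 CPM in control, at 39.3, 33.4 and 31.9 in Nf2-KO, at 22.8, 26.0 and 20.9 in the labelled-Rasa1-KO libraries and at 10.8, 12.6 and 11.8 in the labelled-double-KO libraries. Robo2 was at 2.01, 13.3 and 14.3 CPM in control, at 48.0, 48.4 and 40.6 in Nf2-KO, at 35.5, 33.4 and 32.0 in the labelled-Rasa1-KO libraries and at 5.92, 20.6 and 21.8 in the labelled-double-KO libraries. The control library without a number was lowest for both, and so was double-KO library 1 within its group. Slit2 was at 2.39 ± 0.54 (adjusted p = 0.0043) in Nf2-KO and 1.80 ± 0.53 (adjusted p = 0.018) in the labelled-Rasa1-KO libraries, and 1.88 (adjusted p = 1.9e-07) and 1.29 (adjusted p = 4.5e-06) without that control library. Robo2 was at 2.22 ± 0.61 (adjusted p = 0.012) and 1.78 ± 0.60 (adjusted p = 0.033), and 1.73 (adjusted p = 0.0021) and 1.29 (adjusted p = 0.012) without it. The call of Robo2 in the labelled-Rasa1-KO libraries was lost without any one library of that group or control library 1, and that of Slit2 with only the 6 libraries of both groups fitted. Robo1, next to Robo2 on chromosome 16, was at −0.12 ± 0.24 (adjusted p = 0.71) in Nf2-KO, or −0.41 (adjusted p = 0.0059) without that control library, and −0.80 ± 0.24 (adjusted p = 0.022) in the labelled-Rasa1-KO libraries, which overlapped control. That call was lost without control library 1 or 2, or without library 2 or the library without a number of that group. The TPM of Robo2 was 0.0724 to 0.320 times that of Robo1 in control and 1.47 to 1.87 times in the 6 libraries with low Nf2. Slit1 was at 0.08 TPM on average and was not called.

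**Figure D5:**
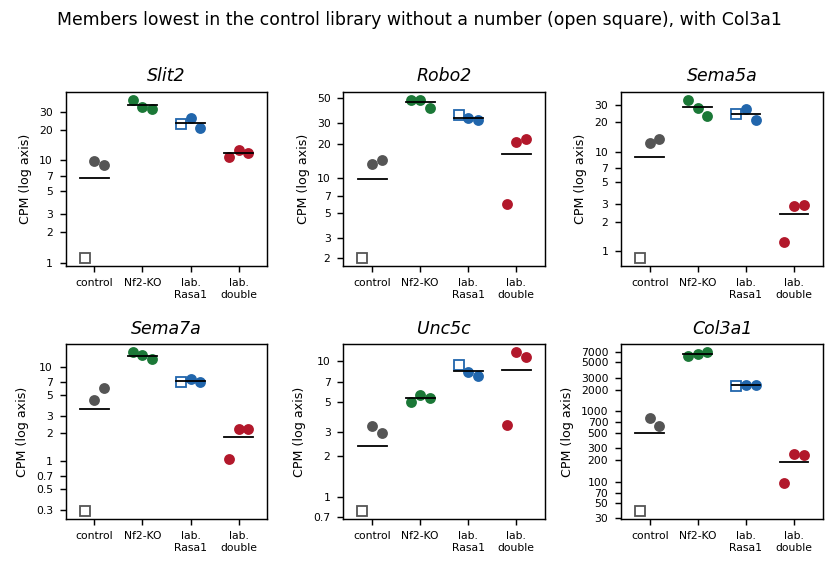
CPM per library of 5 guidance genes and of the collagen gene Col3a1, on log axes, with a line at the mean of 3 libraries and an open square for a library without a number. For all 6 genes the lowest value is in the control library without a number, for example 2.01 CPM of Robo2 against 13.3 and 14.3 in the other control libraries, and within the labelled-double-KO libraries library 1 is the lowest.

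Netrins told Nf2-KO and the labelled-Rasa1-KO libraries apart. Ntn1 was at 15.8, 23.2 and 16.9 CPM in control, at 56.4, 53.6 and 55.9 in Nf2-KO, at 26.7, 28.9 and 29.5 in the labelled-Rasa1-KO libraries and at 17.1, 13.9 and 12.2 in the labelled-double-KO libraries. Ntn1, which attracts or repels axons through Dcc and Unc5, rose by 1.57 ± 0.16 (adjusted p = 1.4e-05) in Nf2-KO and 0.61 ± 0.16 (adjusted p = 0.0096) in the labelled-Rasa1-KO libraries, and these groups differed by −0.96 ± 0.16 (adjusted p = 0.0069). Ntn4 was at 6.52, 11.0 and 10.3 CPM in control, at 6.92, 7.40 and 6.69 in Nf2-KO, at 14.3, 14.6 and 13.6 in the labelled-Rasa1-KO libraries and at 6.50, 6.69 and 6.44 in the labelled-double-KO libraries. Ntn4, a netrin of basement membranes that binds laminin, was above all others in the labelled-Rasa1-KO libraries, at 0.62 ± 0.17 (adjusted p = 0.012) against control, 1.02 ± 0.17 (adjusted p = 0.0076) against Nf2-KO and, for the labelled-double-KO libraries against them, −1.12 ± 0.17 (adjusted p = 0.00062). It was not called in Nf2-KO, at −0.40 ± 0.17 (adjusted p = 0.075), but was without the control library without a number, at −0.60 (adjusted p = 0.00028). The call against control was lost with only the 6 libraries of both groups fitted. Ntn3 and Ntn5 were at 0.22 and 0.35 TPM on average and were not called against control.

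Of the netrin receptors, Unc5b, which also acts in vessels, was abundant, at a mean of 59.4 TPM. Unc5b was at 284, 253 and 204 CPM in control, at 274, 270.3 and 297 in Nf2-KO, at 239, 238 and 239 in the labelled-Rasa1-KO libraries and at 344, 322 and 304 in the labelled-double-KO libraries. It was not called against control, with log2 fold changes of 0.18 ± 0.12 (adjusted p = 0.23), −0.05 ± 0.12 (adjusted p = 0.76) and 0.39 ± 0.12 (adjusted p = 0.079). The last was called at 0.40 with the file-name block and at 0.50 (adjusted p = 0.0038) without the control library without a number. Unc5c was at 0.786, 3.32 and 2.94 CPM in control, at 4.99, 5.61 and 5.39 in Nf2-KO, at 9.35, 8.37 and 7.83 in the labelled-Rasa1-KO libraries and at 3.38, 11.7 and 10.8 in the labelled-double-KO libraries. Unc5c was at 0.83 TPM on average and rose in the labelled-Rasa1-KO libraries, by 1.87 ± 0.50 (adjusted p = 0.012), and in the labelled-double-KO libraries, by 1.89 ± 0.50 (adjusted p = 0.048), or 1.46 (adjusted p = 0.016) without the control library without a number. The latter call was lost in 10 of the 12 fits that left out a library (adjusted p up to 0.17) and with only the 6 libraries of both groups fitted (adjusted p = 0.35). That in the labelled-Rasa1-KO libraries held in all alternative settings, at 1.44 to 2.23. In Nf2-KO, whose libraries were all above control, Unc5c was not called in the main fit. It was called there by DESeq2 and with the file-name block, and its log2 fold change was 0.77 to 1.54 over the alternative settings. Dcc, another netrin receptor, was at 0.219 CPM or less in every library. Neo1, a guidance receptor of the second list below, was at a mean of 16.8 TPM over all libraries.

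Other guidance receptors, adhesion partners and effectors formed a second list of 41 genes, of which 37 were tested. In Nf2-KO 5 rose (13.5%, against 20.4% of all genes) and 15 fell (40.5%, against 22.1%), and in the labelled-Rasa1-KO libraries 6 rose (16.2%, against 19.6%) and 17 fell (45.9%, against 22.1%). In the labelled-double-KO libraries 1 rose (2.7%, against 3.98%) and 0 fell by edgeR, with 4 lower at an unadjusted p under 0.05 and 1 lower by DESeq2. The median log2 fold change was −0.29, −0.55 and −0.02, against −0.07, −0.08 and −0.04 for all genes. Genes with a change of at least 1 on the log2 scale in Nf2-KO were Srgap3, Dpysl3 and Enah, which rose, and Ntng2, Flrt1, Vav2, Ngef, Farp2, Srgap1, Mical1, Mical2, Mical3 and Adam10, which fell. In the labelled-Rasa1-KO libraries they were Chl1 and Enah, which rose, and Ntng2, Flrt1, Vav2, Farp2, Srgap1, Mical2 and Adam10, which fell.

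Effectors downstream of the receptors were among them. Srgap1 was at 2.28, 8.99 and 12.4 CPM in control, at 0.294, 0.445 and 0.371 in Nf2-KO, at 1.73, 2.88 and 2.08 in the labelled-Rasa1-KO libraries and at 3.50, 4.76 and 5.72 in the labelled-double-KO libraries. Srgap1, a GTPase-activating protein that binds Robo, fell, at −4.41 ± 0.55 (adjusted p = 7e-05) in Nf2-KO and −1.82 ± 0.48 (adjusted p = 0.011) in the labelled-Rasa1-KO libraries. The latter group overlapped control, whose library without a number was at 2.28 CPM. Mical2, an enzyme of the family that oxidises actin downstream of plexins, fell, at −1.11 ± 0.21 (adjusted p = 0.0013) and −1.26 ± 0.21 (adjusted p = 0.00065). Farp2, an exchange factor bound to A plexins, fell, at −1.56 ± 0.25 (adjusted p = 0.00046) and −1.48 ± 0.25 (adjusted p = 0.00074). Vav2, an exchange factor recruited by Eph receptors, fell, at −1.15 ± 0.13 (adjusted p = 3.2e-05) and −1.04 ± 0.13 (adjusted p = 9e-05). Enah was at 96.1, 83.0 and 90.4 CPM in control, at 207, 221 and 206 in Nf2-KO, at 183, 188 and 178 in the labelled-Rasa1-KO libraries and at 109, 91.7 and 95.3 in the labelled-double-KO libraries. Enah, an actin regulator of the Ena/VASP family, rose by 1.23 ± 0.10 (adjusted p = 2e-06) and 1.03 ± 0.10 (adjusted p = 1.2e-05). Adam10, the protease that cleaves ephrins, fell, at −1.11 ± 0.24 (adjusted p = 0.0035) in Nf2-KO. Ngef, the exchange factor ephexin, which binds EphA receptors, fell, at −1.28 ± 0.16 (adjusted p = 8.1e-05) in Nf2-KO. Dpysl3, of the collapsin response mediators that act downstream of Sema3a, rose by 1.34 ± 0.18 (adjusted p = 0.00012) in Nf2-KO.

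The remaining genes of that list were less stable or scarce. Srgap3 was at 2.01 ± 0.68 (adjusted p = 0.034) in Nf2-KO and 1.46 (adjusted p = 0.0017) without the control library without a number, and its call was lost without control library 1 or any one Nf2-KO library. Ntng2 was at −2.66 ± 0.55 (adjusted p = 0.0023) in Nf2-KO and −2.40 ± 0.54 (adjusted p = 0.0045) in the labelled-Rasa1-KO libraries, and at −1.88 and −1.61 without control library 2. Chl1, an adhesion molecule that binds neuropilin-1, was at 2.50 ± 0.75 (adjusted p = 0.02) in the labelled-Rasa1-KO libraries. The control library without a number was at 0.17 CPM of Chl1, against 3.1 and 3.6 in the other control libraries. Flrt1 was at −1.10 ± 0.27 (adjusted p = 0.0067) and −1.05 ± 0.27 (adjusted p = 0.009). Mical1 and Mical3 were at −1.57 ± 0.30 (adjusted p = 0.0016) and −1.10 ± 0.30 (adjusted p = 0.011) in Nf2-KO, the latter call being lost without control library 1 (adjusted p = 0.053).

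Departure from additivity asks whether the double-KO differs from Rasa1-KO as Nf2-KO differs from control. With the labels as given 39 guidance genes departed (69.6%, against 52.1% of all genes), 21 upward (37.5%, against 27.3%) and 18 downward (32.1%, against 24.8%). By the rule of the study 24 departed (42.9%, against 25.2%). With the labels of Rasa1-KO and double-KO exchanged 7 departed (12.5%, against 6.32%), 2 upward (3.57%, against 2.67%) and 5 downward (8.93%, against 3.65%). Under the exchanged labels Ntn4 was at 1.52 ± 0.24 (adjusted p = 0.0036), Efnb2 at −1.25 ± 0.21 (adjusted p = 0.0061), Plxnb1 at −0.86 ± 0.17 (adjusted p = 0.012), Epha2 at −0.84 ± 0.20 (adjusted p = 0.028), Sema4a at 0.82 ± 0.19 (adjusted p = 0.026), Sema3a at −0.76 ± 0.15 (adjusted p = 0.012) and Sema6b at −0.65 ± 0.16 (adjusted p = 0.038). With the labels as given, Nf2 itself departed by 4.41 (adjusted p = 8.6e-10) and Rasa1 by −1.10 (adjusted p = 0.00034) by edgeR. With the labels exchanged they were at −0.21 (adjusted p = 0.39) and 0.17 (adjusted p = 0.68). Which labels are right was not tested further, and the count of departures depends on it.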

How the data were processed

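RNA of S1 cells was sequenced in 12 libraries, 3 for each of the 4 genotypes, grouped by the genotype in the labels. The kit was stranded, for total RNA without rRNA. Per the labels' processing notes the authors used Trimmomatic 0.38, HISAT2 2.1.0, SAMtools 1.9 and StringTie 2.1.3b with mm10, and the study names the RefSeq annotation. The counts the authors deposited are unnormalized read numbers per gene, and these were tested. They also deposited TPM, used here for levels of different genes, and FPKM, which were not used. A further deposited column, on a log2 scale after normalization by the authors, was not used.

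Counts were analysed with edgeR 4.0.16 in R 4.3.3, with filterByExpr, TMM and a joint quasi-likelihood fit of the 12 libraries. P-values were adjusted by Benjamini-Hochberg over 18053 genes, and a gene was called under 0.05. TMM factors were 0.946 to 1.15. For pairs of libraries of a group the median chi-square of counts per gene was 2.38 to 43.0. It was scaled by library totals without the TMM factors, and no p was computed. The fit was tested on simulated data. The median log2 fold change of all genes was within 0.1 of 0 in every setting. DESeq2 1.42.0, other size factors, no filter, only the groups compared, a replicate block, leaving out each library, exchanged labels and the rule of the study (a fold change of at least 3 and an unadjusted p under 0.05) were alternatives. The members and lists were chosen with earlier results of these data known. Named were, per comparison with control, up to 12 called members per direction with at least 1 TPM in a group, the most abundant of each family and those called for departure from additivity. Genes of the second list were named with a call and a log2 fold change of at least 1 in size, and Dcc, Epha6 and others outside these rules were named after their values were seen. With 3 libraries against 3 an exact permutation test cannot give a p under 0.1, so none is given. Motifs were searched in promoters of RefSeq, and coordinates are GRCm38. Figures were drawn with matplotlib 3.10.9.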

Additional observations from a re-analysis of the deposited data

Results flagged for a closer look

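Departures from additivity drew attention because the effect of an Nf2 KO was measured both against control and, by the labels, against Rasa1-KO, and the difference between these 2 effects was called by edgeR for 39 of the 56 guidance genes. Departures are on the log2 scale. The upward departures of semaphorins were 6.05 for Sema4g, 4.56 for Sema3d, 3.57 for Sema4a, 3.06 for Sema4d, 1.93 for Sema3f, 1.29 for Sema6d, 1.24 for Sema4b and 1.15 for Sema4c. Among the plexins and neuropilins they were 5.13 for Plxnb3, 3.94 for Plxnb1, 2.73 for Plxnd1, 2.02 for Plxna2, 1.75 for Nrp1, 1.55 for Plxna1 and 1.29 for Plxnb2, and among the Eph receptors and ephrins 2.18 for Efnb1, 1.62 for Efnb3, 1.57 for Epha1, 1.44 for Epha7, 0.76 for Epha4 and 0.70 for Ephb3. The downward departures of semaphorins were −5.53 for Sema3a, −5.03 for Sema5a, −3.88 for Sema7a, −2.25 for Sema6c, −1.42 for Sema4f, −0.91 for Sema3b and −0.81 for Sema3e. Among the Eph receptors and ephrins they were −2.97 for Efna3, −2.07 for Epha2, −1.40 for Ephb6, −1.02 for Efna2, −0.96 for Efna1 and −0.59 for Ephb2, and among the other genes −3.38 for Slit2, −3.28 for Robo2, −2.83 for Nrp2, −2.55 for Ntn1 and −0.72 for Ntn4. The groups labelled Rasa1-KO and double-KO have the opposite names in the deposited tables, and Nf2 was low in the first and not in the second. With these labels exchanged the difference was called for 7 genes, at −1.25 for Efnb2, −0.86 for Plxnb1, −0.84 for Epha2, −0.76 for Sema3a, −0.65 for Sema6b, 0.82 for Sema4a and 1.52 for Ntn4. Beside these values, the labels go against the level of Nf2, and the part of a label error in the departures was not tested further.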

How the results depend on the processing

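Apart from the exchanged labels, no called fold change of a named gene against control changed direction under the alternatives. Of 2622 values of named genes, called or not, 162 lost a call and 90 gained one. Exchanged labels turned values, since the labelled groups change places, for example the departure from additivity of Plxnb1 (3.94 to −0.86) and Ntn4 (−0.72 to 1.52). Counts of called guidance genes that moved by over 1.5 times were as follows. The refits are given without the share of all genes, so these counts do not tell guidance genes from other genes. By the rule of the study they were 13 in Nf2-KO, 12 in the labelled-Rasa1-KO libraries and 2 in the labelled-double-KO libraries against control, 7 between the last 2 groups, 0 between the labelled-Rasa1-KO libraries and Nf2-KO (15 at an unadjusted p under 0.05 by edgeR) and 24 for departure from additivity. With labels exchanged they were 9 (Rasa1-KO) and 37 (double-KO) against control, 26 (Rasa1-KO) against Nf2-KO and 7 for departure from additivity. The labelled double-KO against control gave 9 calls, and 14 (11 higher, 3 lower) with DESeq2, 0 with only the 2 groups (12 at an unadjusted p under 0.05 by edgeR), 28 without the control library without a number and double-KO library 1, and 3 to 23 when each library was left out, lowest without double-KO library 2 (5 without library 3) and highest without the control library without a number. The labelled Rasa1-KO against Nf2-KO gave 4 calls, and 9 with DESeq2, 25 with only the 2 groups, 21 without both libraries and 3 to 14 when each was left out, highest without the control library without a number. With the replicate block, the labelled double-KO against control gave 3 calls by the numbers of the titles and 17 by those of the file names, and the labelled Rasa1-KO against Nf2-KO gave 11 by the file names. By the title numbers, deviations of same-numbered libraries of Nf2-KO and labelled double-KO correlated at −0.08, −0.04 and −0.09. Those of control and labelled double-KO correlated at −0.379 and 0.399. By the file names the control and labelled double-KO libraries correlated at 0.626, 0.313 and 0.444, and pairs of the other groups at −0.055 to 0.174. Neither numbering thus showed a pairing across all groups. With 3 libraries a group, whose separate origin is not stated, small differences were not resolved. Genes under 1 TPM rest on few counts, and intervals of such genes are wide.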
